A study of Mus musculus with 4 samples.

Results

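The genes described here encode the proteins of the mitochondrial ribosome. They were chosen by name: every gene of the expected-count table whose symbol begins with Mrpl or Mrps followed by a digit, pseudogenes left out, which gave 77 genes of the 25509 in the table. All 77 passed the filter on low counts, which kept 12135 genes in all. RNA was sequenced from mouse CD4+ T cells that had been sorted from spleen as naive cells (CD25-, CD62L high, CD44 low) and stimulated through CD3 and CD28 for 72 h with TGFb, IL-4 and TL1A, the TH9 condition with TL1A (a TNF family cytokine, spelled TLA1 in the treatment tag). The 2 groups shared that treatment and differed by genotype: 2 WT libraries and 2 Batf3-/- libraries, numbered replicate 1 and replicate 2 within each genotype. The labels give no strain, age or sex and are silent on whether the replicates are separate animals or cultures. The p-values here measure only the spread between these samples, part of which may be technical. In each genotype the 2 libraries differed widely in the RNA Xist, with values given below. BATF3, the protein that the knockout lacks, belongs to the AP-1 family of leucine zipper factors, which act as dimers on DNA.

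The mitochondrial ribosome is built from proteins encoded in the nucleus, made in the cytosol and imported, and from RNAs encoded in mitochondrial DNA. It translates only the few messenger RNAs of the mitochondrial genome, whose products are core subunits of the respiratory chain and the ATP synthase. Some of its proteins descend from bacterial ribosomal proteins and keep their numbering (Mrpl1 to bacterial L1, Mrps12 to S12), and others are found only in mitochondria. In T cells, activation is known to be followed by growth of the mitochondrial mass, and mitochondrial translation supports proliferation and cytokine production.

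The set held 48 genes named Mrpl and 29 named Mrps. By position in the ribosome, 50 encode proteins of the large subunit, which joins amino acids, and 26 of the small subunit, which reads the messenger RNA. Mrps30 and Mrps18a are large-subunit proteins despite their names and were counted there. Mrps36 was kept apart, since it has also been described as a subunit of the alpha-ketoglutarate dehydrogenase complex. Of the other 76 proteins, 46 were counted as having a bacterial counterpart and 30 as specific to mitochondria. This split followed a list of names, which put Mrps18a and Mrps18b with the 30, although Mrps18b is a relative of bacterial S18. The genes lay on 17 chromosomes. On chromosome 1, which carries Batf3, there were 5 of them, and the nearest, Mrps14, lay 30.9 Mb from Batf3, so that 0 lay within 25 Mb of the targeted gene.

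Sequence upstream of the genes was read to show what their promoters hold, since the missing factor belongs to the AP-1 family. RefSeq start-site windows on GRCm38.p6 (250 bases before to 50 after the start) matched 68 of the 77 genes. Each motif was searched as plain letters on both strands (the CRE and E-box letters read the same on either), and a match could overlap another. A gene counted if any of its windows held a match. The AP-1 letters TGACTCA (reverse TGAGTCA) stood in the windows of 2 genes, Mrpl33 and Mrps5, or 2.94%. The share was 4.34% of 9162 tested genes with a window and 5.95% of all 27025 genes with a window. The ETS core CCGGAAG, letters that GABP also binds, stood in the windows of 25 genes (36.8%, against 21.0% of tested genes and 9.93% of all). The NRF1 letters GCATGCGC stood in those of 8 genes (11.8%, against 6.25% and 3.05%), and the YY1 letters AAGATGGC in those of 12 (17.6%, against 5.39% and 3.19%). The E-box CACGTG stood in those of 5 genes (7.35%, against 11.9% and 8.09%) and the CRE letters TGACGTCA in those of 2 (2.94%, against 3.82% and 2.03%). The TATA letters TATAAA stood in those of 5 (7.35%, against 8.08% and 15.7%). The windows had a median GC content of 58.5%, against 60.7% for tested genes and 52.7% for all. These matches describe letters, not bound sites. The 5 stretches below were picked to show an AP-1 match (Mrpl33), an ETS match (Mrps22), an NRF1 match (Mrpl10), an E-box match (Mrpl20) and a window with none of the searched letters (Mrpl1, the gene with the lowest fold change). Each is the longest run of the upstream window outside annotated exons, 5′ to 3′ on the gene's strand, with matches in capitals.
Mrpl33, chr5:31613701-31613938, plus strand: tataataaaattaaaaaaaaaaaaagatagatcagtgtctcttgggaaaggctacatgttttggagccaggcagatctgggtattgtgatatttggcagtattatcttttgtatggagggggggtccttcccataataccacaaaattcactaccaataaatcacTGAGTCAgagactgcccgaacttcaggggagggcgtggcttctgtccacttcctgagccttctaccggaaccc
Mrps22, chr9:98601680-98601929, minus strand: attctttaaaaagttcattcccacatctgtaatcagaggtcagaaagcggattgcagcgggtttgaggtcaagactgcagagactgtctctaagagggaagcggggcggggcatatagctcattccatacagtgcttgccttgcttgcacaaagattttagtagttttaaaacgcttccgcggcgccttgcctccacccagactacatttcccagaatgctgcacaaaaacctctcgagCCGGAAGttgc
Mrpl10, chr11:97041408-97041559, plus strand: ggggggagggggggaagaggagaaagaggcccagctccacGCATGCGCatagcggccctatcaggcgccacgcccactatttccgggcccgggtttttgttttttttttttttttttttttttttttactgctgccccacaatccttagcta
Mrpl20, chr4:155802628-155802877, plus strand: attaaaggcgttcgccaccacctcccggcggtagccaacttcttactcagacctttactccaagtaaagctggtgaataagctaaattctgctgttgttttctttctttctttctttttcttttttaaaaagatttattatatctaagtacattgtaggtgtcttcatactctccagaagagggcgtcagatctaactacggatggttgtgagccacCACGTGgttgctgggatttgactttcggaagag
Mrpl1, chr5:96209865-96210080, plus strand: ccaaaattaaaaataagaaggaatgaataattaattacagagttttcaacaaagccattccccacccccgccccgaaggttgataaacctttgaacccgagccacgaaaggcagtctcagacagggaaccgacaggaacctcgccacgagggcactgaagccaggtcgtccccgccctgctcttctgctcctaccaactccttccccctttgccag

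Head-to-head neighbours were common around these genes. In the GENCODE M21 annotation, 26 of the 77 (33.8%) had a protein-coding gene starting on the opposite strand within 1000 bases upstream or overlapping by up to 500 bases, against 15.2% of 11745 tested protein-coding genes. Among them, Mrpl32 faced Psma2, a proteasome subunit gene, at 75 bases. Mrps12 faced Sars2, the mitochondrial seryl-tRNA synthetase gene, at 172 bases. Mrpl36 faced Ndufs6, a complex I subunit gene, with an overlap of their starts. Mrps11 and Mrpl46 faced each other on chromosome 7 and shared 173 exon bases on opposite strands. RSEM divided reads between overlapping genes: 20 members had fractional counts, 19 of them with exon bases shared with another gene in the table. The counts of Mrps11 and Mrpl46 were fractional in 2 of the 4 libraries but summed to whole reads in 4 of 4 (within 0.011), as did those of Mrps6 and Slc5a3, a transporter gene on the same strand. How those reads were divided is therefore uncertain, and so are the separate levels of these genes and of Mrps34, which shares exon bases with Mapk8ip3 and Nme3. The same holds for other members with fractional counts and shared exon bases. Among them, Mrpl18 shares 141 bases with Tcp1, and Mrpl47 shares 616 with Ndufb5 and 452 with Actl6a. Mrpl13 shares 330 with Mtbp, and Mrpl12 shares 200 with Gm16755.

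The targeted gene was low where the labels say so: Batf3 stood at 61.7 and 60.5 CPM (counts per 1000000 of the TMM-scaled library size) in WT replicates 1 and 2 and at 0.535 and 0.517 CPM in Batf3-/- replicates 1 and 2. Library totals ranged from 15624874 to 31098059 counts. The 6 T cell markers summed to between 1913 and 1954 CPM, and Cd4 alone to between 474 and 553 CPM. Markers of B, myeloid, dendritic, NK, mast, erythroid and CD8 T cells summed to at most 13.2 CPM each in any library. Some of them, such as Ms4a1, Lyz2 and Ncr1, were at 0 in all, and others were detected. Cd79b, a B cell marker, was at 13.1 and 9.62 CPM in WT and at 9.98 and 12.2 CPM in Batf3-/-. Cd8b1 of CD8 T cells was at 8.92 and 8.31 CPM in WT and at 7.33 and 7.24 CPM in Batf3-/-. Zbtb46 of dendritic cells was at 7.24 and 5.43 CPM in WT and at 5.16 and 4.91 CPM in Batf3-/-. WT replicate 1 stood apart slightly, with correlations of log2 CPM of 0.971 to 0.976 with the other libraries, which correlated with each other at 0.981 to 0.982. Xist, the X-inactivation RNA, was at 0.214 CPM in WT 1 and 0.0944 in Batf3-/- 1 but at 166 in WT 2 and 144 in Batf3-/- 2, so the libraries numbered 1 and those numbered 2 also differed in this RNA.

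All 77 genes were detected well in every library, with 157 to 3727 counts per gene and library. Their mean levels ran from 10.96 CPM for Mrpl55 to 121 CPM for Mrpl45, with a median of 35.3 CPM, against a median of 26.7 CPM over all tested genes. As a share of all counts they made up 0.317% in WT 1, 0.282% in WT 2, 0.323% in Batf3-/- 1 and 0.272% in Batf3-/- 2.

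To compare genes with each other, levels were divided by the length of the longest annotated transcript. On that scale (CPM per kilobase) the genes spread over 14.9-fold. Mrps21, a small-subunit protein with a bacterial counterpart, was highest at 69.7 and 64.9 CPM per kilobase in WT and 89.9 and 74.1 in Batf3-/-. Mrps6 followed with 76.0 and 56.9 in WT and 63.0 and 61.7 in Batf3-/-, then Mrpl18, with 76.4 and 58.2 in WT and 59.9 and 58.7 in Batf3-/-, and Mrps33, with 64.8 and 46.1 in WT and 56.7 and 46.2 in Batf3-/-. The ranges of neighbours in this order overlapped over the 4 libraries. Compared within each library, Mrpl18 was above Mrps33 in every one, while the order of the other neighbours varied between libraries. Lowest were Mrpl47 at 5.73 and 4.77 in WT and 5.20 and 4.35 in Batf3-/-, Mrpl17 at a mean of 5.38, Mrpl16 at 5.89 and Mrpl13 at 6.05. The levels of Mrps6, Mrpl18, Mrpl47 and Mrpl13 rest in part on reads divided with overlapping genes, as given above. These positions depended on the transcript chosen: with the median length of the coding transcripts in place of the longest, 6 of the 10 highest genes were shared, Mrpl17 stood at 52.8 instead of 5.38, and the Spearman correlation of the 2 orders was 0.66 over 77 genes.

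**Figure D1:**
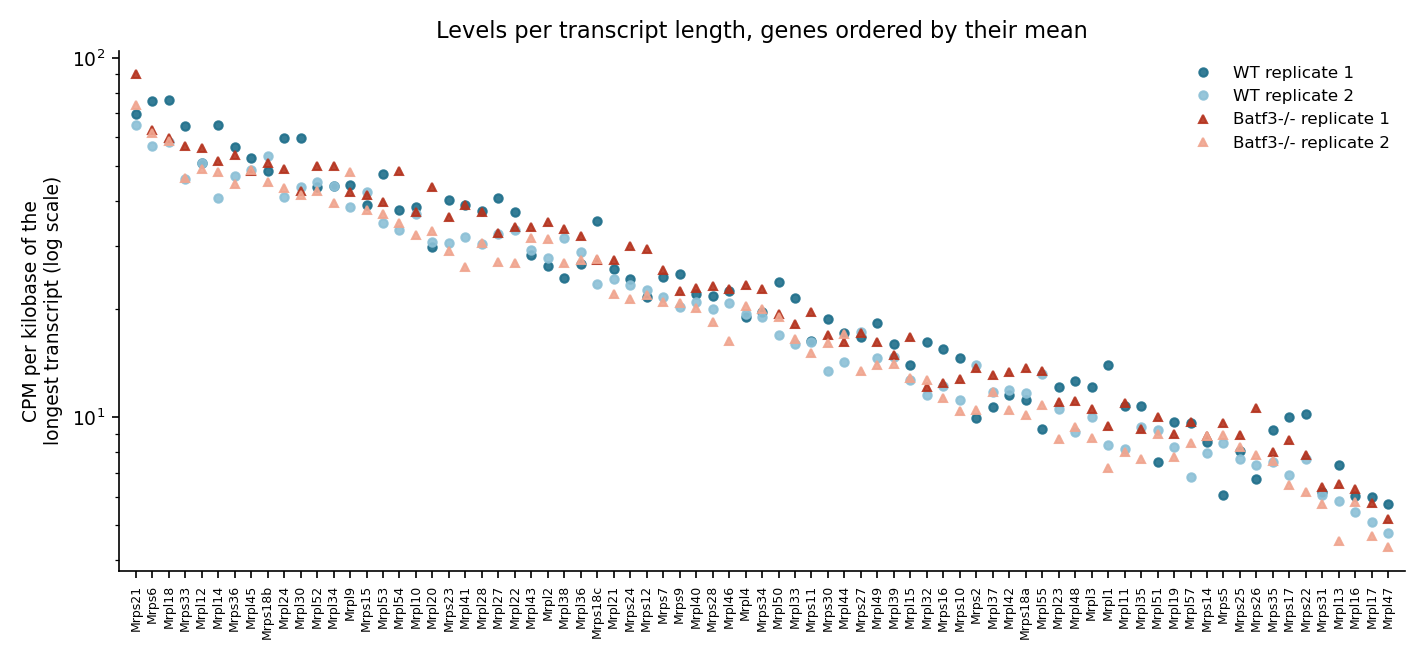
Level of each of the 77 genes in each library, in CPM per kilobase of the longest transcript on a log axis, with genes ordered by their mean (circles WT, triangles Batf3-/-, dark replicate 1, light replicate 2). The genes fall from Mrps21 to Mrpl47 over 14.9-fold, and neighbours in the order overlap in their library values.

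Loss of BATF3 left no gene of the set past the test. In the edgeR quasi-likelihood fit over all genes, 0 of 77 passed a Benjamini-Hochberg adjusted p of 0.05, where 16 of 12135 tested genes (0.132%) did, 10 higher and 6 lower in Batf3-/-. The smallest adjusted p in the set was 0.958. At an unadjusted p under 0.05 the set also gave 0 genes, against 583 of all tested genes (4.8%), and the smallest unadjusted p was 0.0776, for Mrps26. DESeq2 and limma-voom, run as alternatives, also called 0 members. Log2 fold changes (Batf3-/- minus WT) were positive in 36 and negative in 41, with a median of -0.04 against -0.01 over all tested genes. They ran from -0.41 to 0.39, with the middle 50% between -0.12 and 0.11, against -0.17 and 0.18 for all tested genes. The 95% interval of the fold change lay within 2-fold either way for all 77 genes, with bounds reaching from -0.92 to 0.83, against 79.7% of all tested genes. Standard errors in the set were 0.18 to 0.25. With 2 libraries a group, differences smaller than these intervals were not detectable, and larger ones could also miss the adjusted threshold. Outside the set, mt-Atp8 at -0.87 (SE 0.21, edgeR adjusted p = 0.232) and Esrra at 0.70 (SE 0.22, edgeR adjusted p = 0.647) were not called. In bulk RNA fewer cells of a type and less RNA per cell cannot be told apart.

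**Figure D2:**
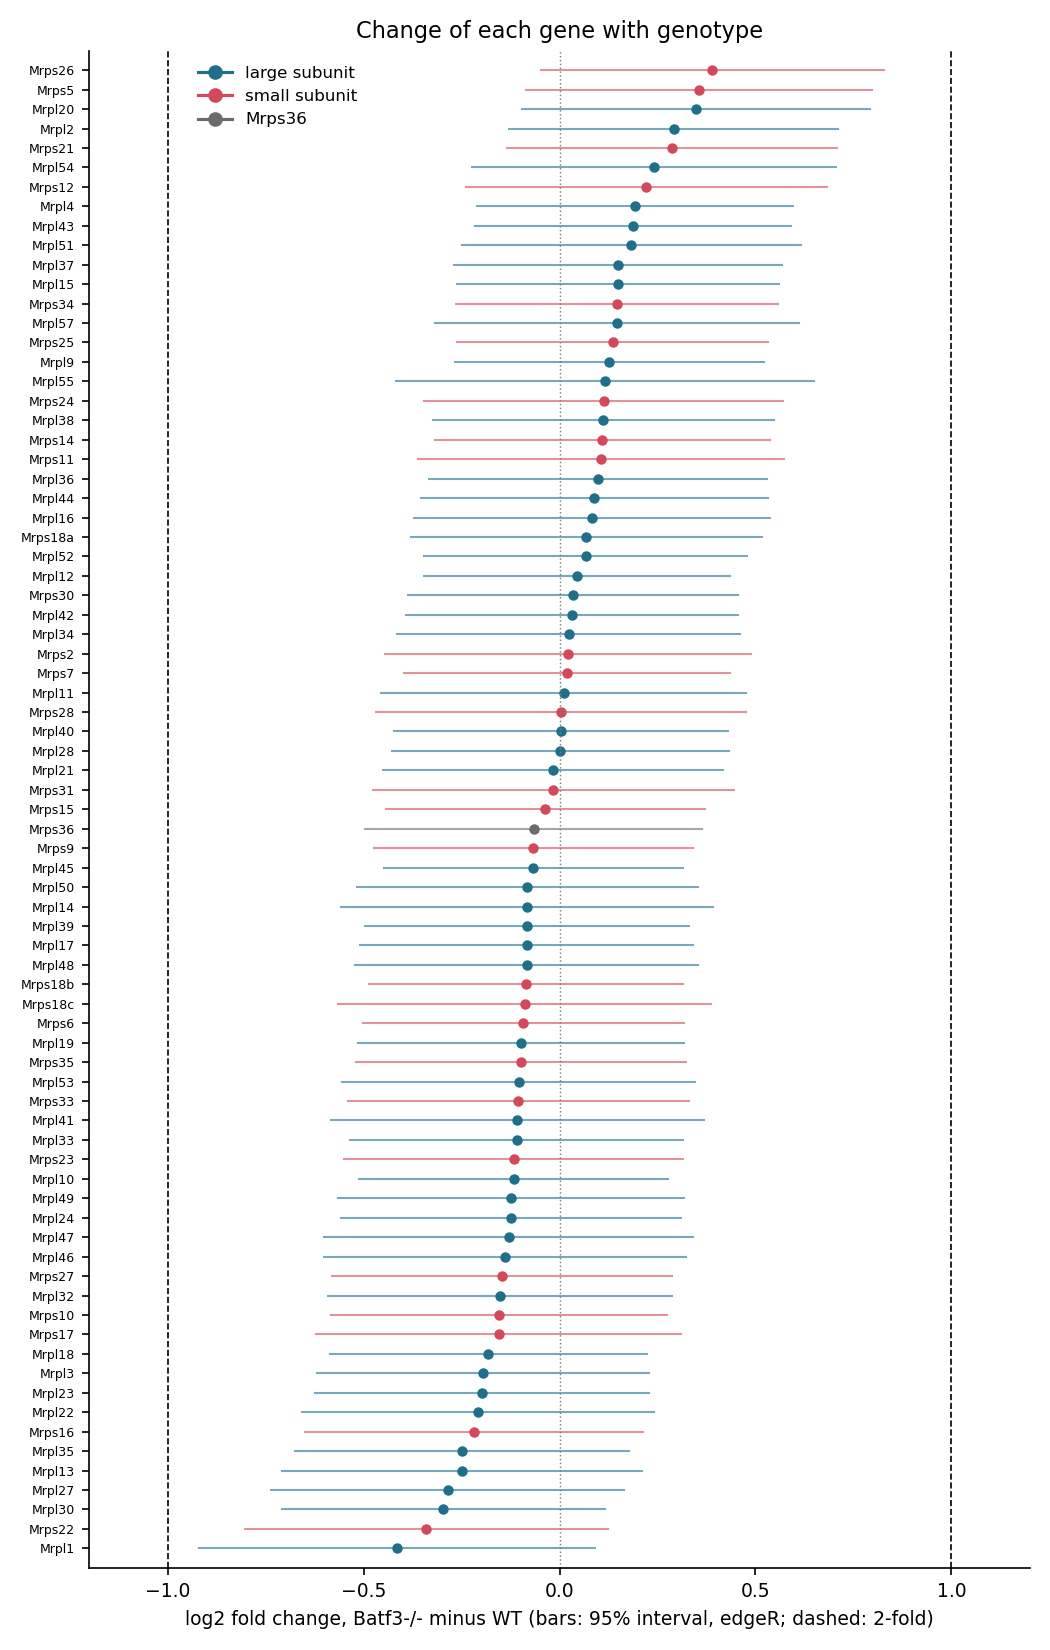
Log2 fold change of each gene, Batf3-/- minus WT, with its 95% interval from edgeR, ordered by size and coloured by subunit; dashed lines mark 2-fold. All 77 intervals cross 0 and lie inside the dashed lines, from Mrpl1 at -0.41 to Mrps26 at 0.39.

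The 5 genes with the highest fold changes were Mrps26, Mrps5, Mrpl20, Mrpl2 and Mrps21. Mrps26 (ENSMUSG00000037740.8, chr2:130563742-130568695, plus strand, GRCm38), which encodes a mitochondria-specific small-subunit protein, was at 28.8 and 31.5 CPM in WT and at 45.2 and 33.6 CPM in Batf3-/-. Both Batf3-/- libraries were above both WT libraries, with Batf3-/- 1 well above the rest, and the log2 fold change was 0.39 (SE 0.21, 95% interval -0.05 to 0.83). Mrps5, a bacterial-type protein of the small subunit known to affect the accuracy of decoding, was at 27.2 and 37.9 CPM in WT and at 43.3 and 40.0 CPM in Batf3-/-. Its WT libraries differed more from each other than WT 2 did from either Batf3-/- library (log2 fold change 0.36, SE 0.21). Mrpl20, the counterpart of a bacterial protein needed early in assembly of the large subunit, was at 24.1 and 24.9 CPM in WT and at 35.4 and 26.7 CPM in Batf3-/-. The groups did not overlap, but Batf3-/- 2 lay close to WT (log2 fold change 0.35, SE 0.21). Mrpl2, the counterpart of L2 near the catalytic centre, was at 27.2 and 28.6 CPM in WT and at 35.9 and 32.3 CPM in Batf3-/- (log2 fold change 0.29, SE 0.20). Mrps21 was at 34.0 and 31.7 CPM in WT and at 43.9 and 36.1 CPM in Batf3-/- (log2 fold change 0.29, SE 0.20).

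The 5 lowest were Mrpl1, Mrps22, Mrpl30, Mrpl27 and Mrpl13. Mrpl1 (ENSMUSG00000029486.13, chr5:96209493-96266727, plus strand), the counterpart of L1 of the mobile stalk beside the exit site, was at 49.5 and 29.8 CPM in WT and at 33.5 and 25.7 CPM in Batf3-/-. WT 1 stood above the other 3 libraries, and Batf3-/- 1 was above WT 2, so the groups overlapped (log2 fold change -0.41, SE 0.24, 95% interval -0.92 to 0.09). Leaving out WT replicate 2 moved Mrpl1 to -0.74, and leaving out WT replicate 1 moved it to -0.01. Mrps22, a mitochondria-specific small-subunit protein whose mutation in humans causes respiratory chain deficiency, was at 33.7 and 25.1 CPM in WT and at 25.8 and 20.4 CPM in Batf3-/- (log2 fold change -0.34, SE 0.22). Here too WT 2 and Batf3-/- 1 were nearly level. Mrpl30 was at 105 and 76.6 CPM in WT and at 74.7 and 73.1 CPM in Batf3-/-, with both knockout libraries just under WT 2 (log2 fold change -0.30, SE 0.20). Mrpl27, the counterpart of a bacterial protein that reaches into the catalytic centre, was at 30.7 and 24.5 CPM in WT and at 24.6 and 20.4 CPM in Batf3-/- (log2 fold change -0.29, SE 0.22). Mrpl13 was at 44.1 and 35.0 CPM in WT and at 39.0 and 27.2 CPM in Batf3-/- (log2 fold change -0.25, SE 0.22).

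Mrpl12, Mrpl10 and Mrpl11 belong to the stalk base and factor-binding region. Mrpl12, the counterpart of the L7/L12 stalk protein that recruits elongation factors and has also been described as a partner of the mitochondrial RNA polymerase, was at 67.0 and 66.9 CPM in WT and at 73.8 and 64.3 CPM in Batf3-/-. The WT libraries lay between the knockout libraries (log2 fold change 0.05, 95% interval -0.34 to 0.43). Mrpl10, which anchors Mrpl12, was at 65.8 and 62.7 CPM in WT and at 63.4 and 54.9 CPM in Batf3-/- (log2 fold change -0.12, 95% interval -0.51 to 0.28). Batf3-/- 2 was below both WT libraries. Mrpl11, the counterpart of L11 at the stalk base, was at 32.7 and 24.9 CPM in WT and at 33.3 and 24.4 CPM in Batf3-/- (log2 fold change 0.01, 95% interval -0.45 to 0.48). In Mrpl11 the libraries numbered 1 were alike and above those numbered 2, which were also alike.

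Around the peptide exit tunnel, Mrpl4 was at 44.1 and 44.8 CPM in WT and at 54.2 and 47.3 CPM in Batf3-/- (log2 fold change 0.19), and Mrpl3 had a log2 fold change of -0.20. Mrpl16, at the centre of the large subunit, gave 0.08, and Mrpl32, which the m-AAA protease must cut before it joins the ribosome, gave -0.15. At the central protuberance, Mrpl18 was at 93.1 and 70.9 CPM in WT and at 73.0 and 71.6 CPM in Batf3-/- (log2 fold change -0.18), and Mrpl38 gave 0.11. Mrpl41 gave -0.11, Mrpl47 -0.13, Mrpl50 -0.08, Mrpl55 0.11, Mrpl17 -0.08, Mrpl14 -0.08 and Mrpl33 -0.11. Mrpl33, which carries the AP-1 letters printed above, was at 58.9 and 43.8 CPM in WT and at 49.7 and 45.3 CPM in Batf3-/-, with both knockout libraries between the WT libraries. Mrps30 and Mrps18a, the large-subunit proteins with small-subunit names, gave 0.04 and 0.07.

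In the small subunit, Mrps12, the counterpart of the decoding-centre protein S12, was at 19.1 and 20.0 CPM in WT and at 26.0 and 19.3 CPM in Batf3-/-, high in 1 knockout library and level with WT in the other (log2 fold change 0.22). Mrps16, whose bacterial counterpart supports assembly, was at 39.7 and 31.4 CPM in WT and at 31.98 and 29.0 CPM in Batf3-/- (log2 fold change -0.22). Mrps34, a mitochondria-specific protein needed for a stable small subunit, was at 37.0 and 35.9 CPM in WT and at 42.9 and 37.8 CPM in Batf3-/- (log2 fold change 0.15). Mrps18b and Mrps18c, the small-subunit relatives of bacterial S18, both gave -0.09. Mrps6 gave -0.09, Mrps33 -0.11, Mrps2 0.02 and Mrps11 0.10, while Mrpl46, its head-to-head partner in the large subunit, gave -0.14. Mrps36, kept apart, gave -0.07.

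The 2 subunits had similar medians. The median log2 fold change was -0.04 over the 50 large-subunit genes and -0.03 over the 26 small-subunit genes. By the listed origin it was -0.05 over the 46 genes counted as having a bacterial counterpart and -0.01 over the 30 counted as specific to mitochondria. Crossing both, the 30 bacterial-type genes of the large subunit had a median of -0.09 with 12 positive, the 20 mitochondria-specific ones 0.03 with 12 positive, the 16 bacterial-type genes of the small subunit 0.01 with 9 positive and its 10 mitochondria-specific ones -0.09 with 3 positive. No group held a called gene.

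Both Batf3-/- libraries were above both WT libraries in 10 of the 77 genes, against 18.2% of all tested genes, and below both in 3, against 15.6%. So 16.9% of the set had groups that did not overlap, against 33.8% of all tested genes. The 10 included Mrps26, Mrps5, Mrpl20, Mrpl2, Mrps21, Mrpl4 and Mrps34. Mrpl30 was among the 3.

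Taken within each replicate number, the genotype ratio went both ways. In replicate number 1 the median log2 ratio of Batf3-/- to WT was 0.00, with 39 of 77 genes positive, and in number 2 it was -0.06, with 31 positive. The ratios had opposite signs in 42 genes (54.5%, against 44.8% of all tested genes), both were positive in 14 and both negative in 21. Across the 77 genes the 2 ratios had a Spearman correlation of -0.01, where points share the 4 libraries and their depths. The widest gaps in 1 direction were in Mrps2, Mrpl38, Mrpl55 and Mrps5. Mrps2 was at 24.9 and 34.9 CPM in WT and at 34.3 and 26.2 CPM in Batf3-/-, a log2 ratio of 0.46 in number 1 and of -0.41 in number 2. Mrpl55 went from 0.53 to -0.29, Mrpl38 from 0.45 to -0.23 and Mrps5 from 0.67 to 0.08. In the other direction, Mrpl14 was at 42.0 and 26.3 CPM in WT and at 33.3 and 31.0 CPM in Batf3-/-, with ratios of -0.33 and 0.24, and Mrps18c (-0.36 and 0.23), Mrpl32 (-0.41 and 0.14) and Mrpl50 (-0.29 and 0.17) turned the same way. In all of these but Mrps5 the knockout was higher in 1 number and lower in the other.

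The genotype ratio in number 1 moved with base composition, and so did the difference between the WT libraries. Across the 77 genes its Spearman correlation with the GC content of the longest transcript was 0.42, and in number 2 it was -0.15. Over 12105 tested genes with a GC value these were 0.56 and 0.26. WT 1 minus WT 2 correlated with GC content at -0.42 in the set and -0.39 over those genes. Batf3-/- 1 minus Batf3-/- 2 gave 0.24 and -0.06, and the fitted log2 fold change gave 0.28 and 0.58. The ratio in number 1 and the WT difference share the WT 1 library, and which library holds the trend was not tested. The genes share their libraries, and GC content and transcript length were themselves correlated across the set (-0.64). The median GC content of the set was 49.7%, like the 49.8% of all tested genes, while its transcripts were shorter, with a median of 1849 against 3340 nucleotides. The part of GC content in single genes' ratios was not tested. With GC offsets in the fit, the fold changes of Mrpl12, Mrpl38, Mrps34, Mrps18a and Mrps11 turned negative and those of Mrpl17, Mrpl32, Mrpl50, Mrps18c, Mrps33 and Mrps36 turned positive, and 0 members were called.

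**Figure D3:**
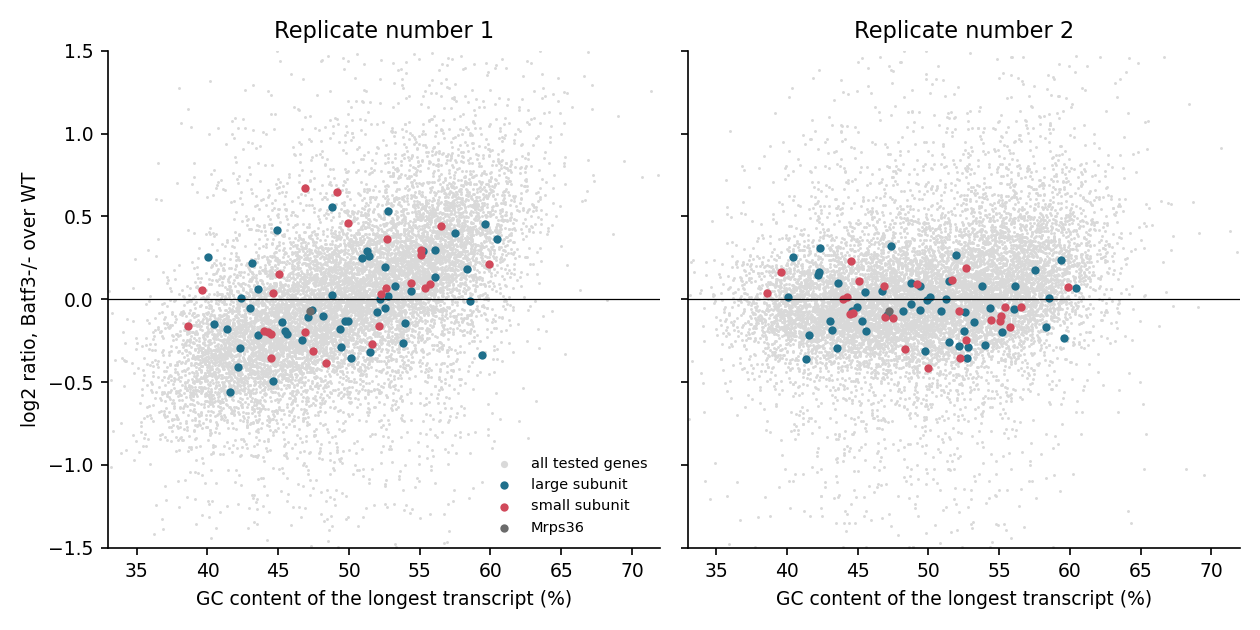
Log2 ratio of Batf3-/- to WT in replicate number 1 (left) and number 2 (right) against the GC content of each gene's longest transcript, for the set (coloured by subunit) and all tested genes (grey; points beyond the axes are not drawn). In number 1 the ratio of the set rises with GC content (Spearman 0.42), and in number 2 it does not (-0.15).

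The larger difference in this set lay between replicate numbers. The 77 genes together reached 3227 CPM in WT 1, 2803 CPM in WT 2, 3163 CPM in Batf3-/- 1 and 2747 CPM in Batf3-/- 2. The library numbered 1 was above that numbered 2 by 1.15-fold in both genotypes, whereas Batf3-/- over WT was 0.980 in each number. Mean summed levels were 3015 ± 299.99 CPM in WT and 2955 ± 294 CPM in Batf3-/- (SD, n = 2), and the exact two-sided permutation test of that difference gave p = 0.667, where 0.333 is the smallest that 2 against 2 can reach.

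Gene by gene, WT 1 was above WT 2 in 57 of 77 genes (74.0%, against 49.2% of all tested genes). Batf3-/- 1 was above Batf3-/- 2 in 71 (92.2%, against 50.9%), and both held in 51. Across the set the 2 differences had a Spearman correlation of -0.20, against 0.18 over all tested genes. The median log2 difference between numbers was 0.18 in WT and 0.23 in Batf3-/-, against -0.01 and 0.01 over all tested genes. Both libraries numbered 1 were above both numbered 2 in 46 genes (59.7%), against 21.1% of all tested genes, and the reverse held in 0, against 18.9%. The highest library was WT 1 in 37 genes and Batf3-/- 1 in 34, and the lowest was Batf3-/- 2 in 38 and WT 2 in 25. In 54 genes (70.1%) the difference between numbers exceeded the difference between genotypes, against 53.4% of all tested genes. Genes with both libraries numbered 1 above both numbered 2 included Mrpl1, Mrpl10, Mrpl11, Mrpl13, Mrpl27, Mrpl3, Mrpl41, Mrps16 and Mrps22. Mrpl41, a mitochondria-specific protein of the large subunit, was at 30.1 and 24.6 CPM in WT and at 30.2 and 20.2 CPM in Batf3-/-. Mrpl3 was at 48.3 and 39.7 CPM in WT and at 41.8 and 34.8 CPM in Batf3-/-.

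**Figure D4:**
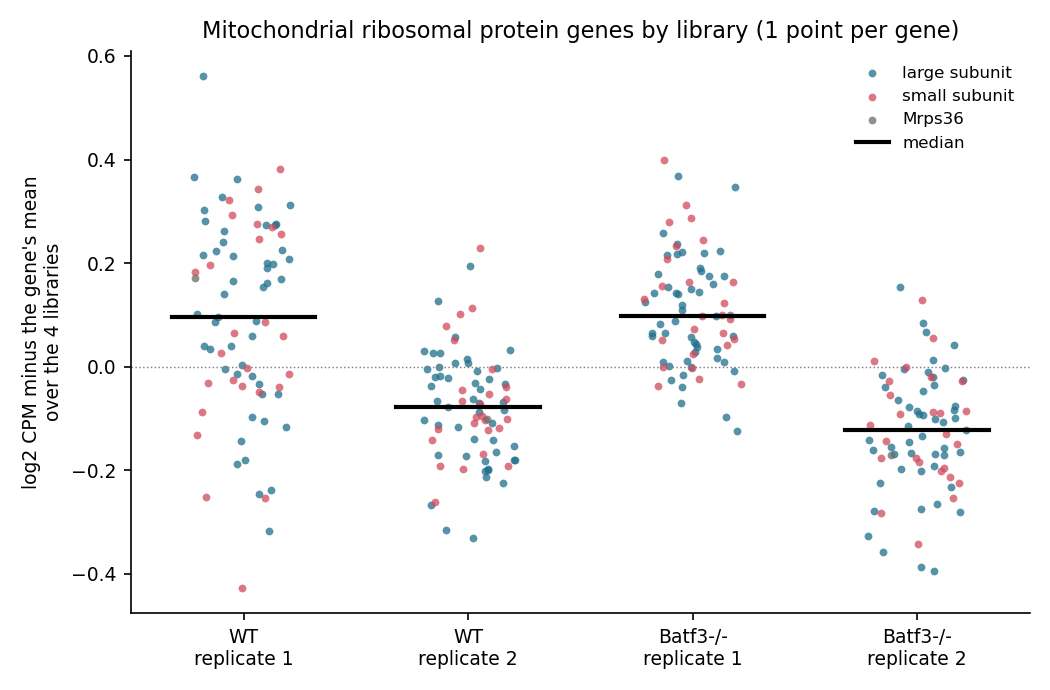
Log2 CPM of each gene in each library minus that gene's mean over the 4 libraries (1 point per gene, coloured by subunit; bars are medians). The medians of both libraries numbered 1 lie above 0 and those of both numbered 2 below 0, in WT and in Batf3-/- alike.

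The titles give both libraries numbered 1 the prefix E85 and both numbered 2 the prefix E87, in WT and Batf3-/- alike. The labels do not say what the prefix or the number marks (an experiment, a day or an animal), so the difference between numbers was given no test and the fit without a replicate block was kept. With the number as a block, edgeR called 81 genes higher and 31 lower over all genes, and 0 members. Xist levels moved with it, as given above, and the difference also varied with transcript length over all tested genes. The Spearman correlation of the difference between numbers with length was -0.17 in WT and -0.34 in Batf3-/- (12105 genes), and 0.14 and -0.06 within the set. With transcript length offsets in the scaling, the median differences between numbers in the set were 0.10 in WT and 0.14 in Batf3-/-, and with GC offsets 0.18 and 0.23. What the number marks and the differences in Xist cannot be told apart.

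**Figure D5:**
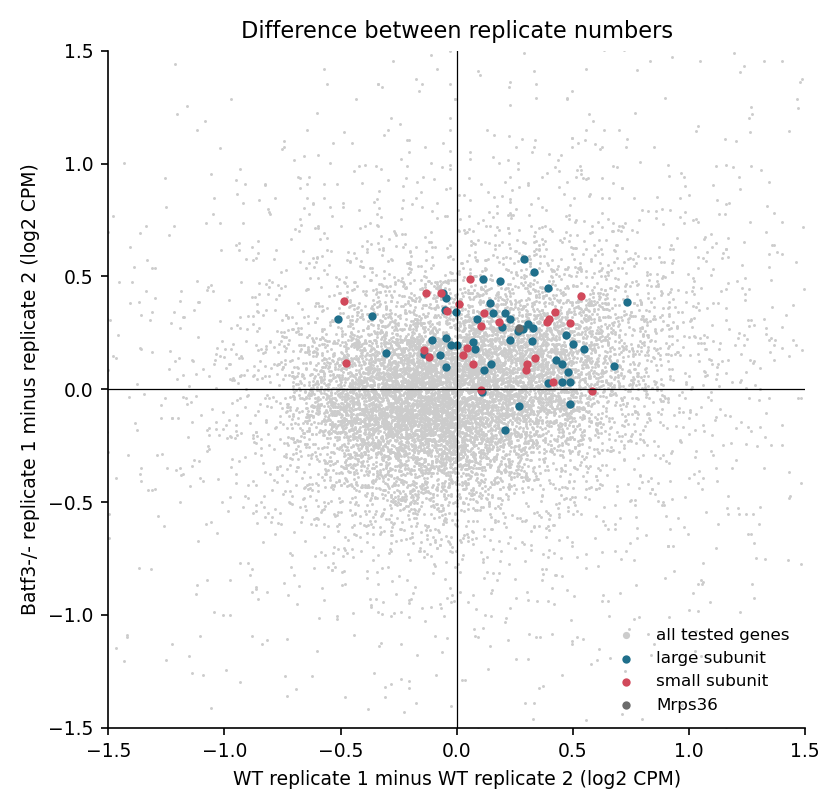
Difference in log2 CPM between replicates 1 and 2, in WT (x axis) and in Batf3-/- (y axis), for the set (coloured by subunit) and all tested genes (grey; points beyond the axes are not drawn). In 51 of the 77 genes of the set both differences are positive, and in Batf3-/- 71 are above 0. Across the set the differences have a Spearman correlation of -0.20.

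The same values were read in a pair of other nuclear gene lists. Over 81 tested nuclear genes of the respiratory chain the median difference between numbers was 0.20 in WT and 0.12 in Batf3-/-, with both number 1 libraries above both number 2 libraries in 43 (53.1%, against 21.1% of all tested genes). Over 79 cytosolic ribosomal protein genes it was 0.31 in WT but -0.08 in Batf3-/-, with 15 such genes (19.0%, against the same 21.1%). The cytosolic list thus held its number difference in WT, and its median had the opposite sign in Batf3-/-. These medians stand side by side and their difference was not tested. By genotype, the median log2 fold change was -0.03 in the respiratory chain list and 0.03 in the cytosolic list, with 0 called in either.

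Other genes of mitochondrial translation, from lists chosen by function, gave 0 called genes as well. Of 6 mitochondrial ribosome subunits whose symbols fall outside the naming rule, 2 had positive fold changes (median -0.10). Gadd45gip1, a large-subunit protein, was at 95.03 and 93.7 CPM in WT and at 120 and 107 CPM in Batf3-/- (log2 fold change 0.27, SE 0.18), and Aurkaip1, of the small subunit, gave 0.18. Of 23 genes for assembly and modification of mitochondrial ribosomal RNA, 12 were positive (median 0.01), with Mettl15, a methyltransferase of the small-subunit RNA, at -0.48 and Rbfa, a small-subunit maturation factor, at 0.31. Of 12 translation factors, 5 were positive (median -0.02), with Tsfm, the partner of the elongation factor Tufm, at 0.27 and the release factor Mtrf1l at -0.28.

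Among the 17 mitochondrial aminoacyl-tRNA synthetases, which charge the tRNAs, 11 were positive (64.7%, against 48.4% of all tested genes) with a median of 0.13. Aars2, for alanine, was at 11.2 and 14.4 CPM in WT and at 20.9 and 20.4 CPM in Batf3-/- (log2 fold change 0.69, edgeR adjusted p = 0.701). It held neither the smallest edgeR adjusted p of the list (0.429) nor its highest log2 fold change (0.80). Of 21 genes for transcription, replication and RNA processing of mitochondrial DNA, 8 were positive (median -0.03), with Tfam, which packages and transcribes mitochondrial DNA, at -0.29 and the polymerase gene Polg at 0.28. Of 12 regulators of mitochondrial biogenesis and growth, 5 were positive (median -0.08), with Esrra, a nuclear receptor of mitochondrial gene control, at 0.70 (edgeR adjusted p = 0.647).

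The 13 protein genes of mitochondrial DNA, the messages that this ribosome translates, had a median log2 fold change of -0.31 with 2 positive, and both Batf3-/- libraries were below both WT libraries in 9, against 15.6% of all tested genes. mt-Atp8, an ATP synthase subunit, was at 115 and 75.1 CPM in WT and at 56.3 and 47.4 CPM in Batf3-/- (log2 fold change -0.87, SE 0.21, edgeR adjusted p = 0.232). mt-Nd6, a complex I subunit, was at 231 and 201 CPM in WT and at 161 and 142 CPM in Batf3-/- (log2 fold change -0.51, edgeR adjusted p = 0.838). For the nuclear genes of the mitochondrial ribosome the corresponding count was 3 of 77, against the same 15.6%. The 2 lists differ in base composition, with a median GC content of 37.1% for the 13 genes and 49.7% for the 77. All tested genes had a median of 49.8%, and across 12105 of them the log2 fold change rose with GC content (Spearman 0.58). The part of GC content in the values of the 13 genes was not tested. The 2 mitochondrial ribosomal RNAs were not analysed here.

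The centre of the set depended on single libraries. The median log2 fold change of the 77 genes ran from -0.14 without Batf3-/- replicate 1 to 0.06 without Batf3-/- replicate 2, and the number of genes with a positive value from 16 without Batf3-/- replicate 1 to 54 without WT replicate 1. Each of these fits leaves a single library in a group, which is then assumed to vary like the other group.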

How the data were processed

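Per the labels' protocols, polyadenylated RNA was made into stranded libraries and read as single ends. The authors deposited RSEM expected counts, estimates that divide reads shared by genes and need not be whole, which the submitters' processing notes credit to STAR 2.5.0 and RSEM 1.2.25 on GRCm38. Which annotation release and strand setting were used is not given in the sources used here. Expected counts were rounded and fitted with edgeR 4.0.16 in R 4.3.3 (filterByExpr, with a minimum count of 10 and a minimum total of 15, TMM factors 0.982 to 1.02, glmQLFit and glmQLFTest, two-sided, genotype as the only term, Benjamini-Hochberg adjustment over 12135 genes at 0.05). DESeq2 1.42.0, limma 3.58.1, other scalings and filters, a replicate block, GC and length offsets and leaving out each library were alternatives. Per-library log2 CPM used a prior count of 0.5. Fits were tested on simulated data. Gene positions, lengths and GC content came from GENCODE M21, which matched 25251 of the 25509 genes. The 92 spike-in entries held 0 counts and were left out.

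The members and lists were chosen with earlier results of these data known. Named members were the 5 highest and 5 lowest fold changes, the 5 smallest p, the 4 highest and 4 lowest levels per kilobase, the 4 widest gaps between replicate numbers in each direction, a fixed panel of 15 genes, and up to 4 genes with shared reads. Mrpl33, Mrpl45, Mrpl36, Mrps14 and the neighbouring genes were named after their values or positions were seen.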

Additional observations from a re-analysis of the deposited data

How the results depend on the processing

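No mitochondrial ribosomal protein gene passed the adjusted threshold under other library scalings, other low-count filters, DESeq2, limma-voom, the replicate block, GC offsets or length offsets. The count of calls over all genes moved more: higher genes numbered 16 with scaling by total counts, 21 with DESeq2 and 2 with length offsets (3 lower), and leaving out 1 library gave 11 to 301 higher and 7 to 252 lower, the most without WT replicate 2, where the lone WT library is assumed to vary like the other group. The mitochondrial ribosomal set then had 0 to 1 genes called lower (Mrpl1), 16 to 54 positive fold changes and a median of -0.14 to 0.063. The median ratio in number 1 was 0.061 with total counts and 0.050 with upper-quartile scaling. The median of WT 1 minus WT 2 was 0.15 with total counts and 0.10 with length offsets, and that of Batf3-/- 1 minus 2 was 0.27 with total counts, 0.27 with upper-quartile scaling and 0.14 with length offsets; the settings for these ratios and differences were chosen after seeing the data.

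With the replicate number as a block, 81 genes were called higher and 31 lower over all genes, and with block and GC offsets 55 and 33, with 0 members in either. The deviations of same-numbered libraries correlated at 0.105 over 12135 genes, and the title prefixes E85 and E87 follow the number in both genotypes without the labels saying what they mark. Under the block, the log2 fold change changed sign for Mrpl11 -0.000466, and under the block with GC offsets for Mrpl12 -0.14, Mrpl17 0.058, Mrpl32 0.027, Mrpl38 -0.20, Mrpl50 0.10, Mrps11 -0.056, Mrps18a -0.10, Mrps18c 0.058, Mrps33 0.037 and Mrps34 -0.18.

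Small fold changes also changed sign elsewhere. With GC offsets these were Mrpl12 -0.13, Mrpl17 0.067, Mrpl32 0.023, Mrpl38 -0.19, Mrpl50 0.091, Mrps11 -0.039, Mrps18a -0.077, Mrps18c 0.046, Mrps33 0.037, Mrps34 -0.18 and Mrps36 0.00169. With length offsets they were Mrpl11 -0.018, Mrpl12 -0.00268, Mrpl17 0.015 and Mrps2 -0.026. Leaving out 1 library gave ranges across 0 for Mrpl11 -0.24 to 0.21, Mrpl12 -0.058 to 0.14, Mrpl14 -0.38 to 0.28, Mrpl17 -0.25 to 0.063, Mrpl18 -0.37 to 0.017, Mrpl32 -0.38 to 0.10, Mrpl33 -0.31 to 0.11, Mrpl38 -0.068 to 0.31, Mrpl41 -0.44 to 0.15, Mrpl46 -0.41 to 0.078, Mrpl50 -0.31 to 0.17, Mrpl55 -0.12 to 0.40, Mrps11 -0.11 to 0.28, Mrps12 -0.015 to 0.41, Mrps18a -0.17 to 0.26, Mrps18c -0.35 to 0.22, Mrps2 -0.21 to 0.28, Mrps30 -0.19 to 0.28, Mrps33 -0.33 to 0.15, Mrps36 -0.21 to 0.065 and Mrps6 -0.29 to 0.12. The cause of these moves was not tested. The lowest count of a member in any library was 157.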
